A study of Mus musculus with 6 samples.

Results

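Ddx4, Dazl, Dnd1, Tex14, Tex19.1, Tex101, Taf7l, Tktl1, Stk31 and Rbm46 are mouse genes best known from germ cells. Most encode proteins that bind RNA or act in germ cell structures. They were chosen by name: every array probe annotated to 1 of the 10 symbols was taken. The platform annotation gave 14 probes out of 45281, for 9 of the 10 symbols. Rbm46, an RNA-binding protein gene, had no probe by that name and was not analysed here. All 9 genes passed the filter on dim probes, through 12 of the 14 probes, and were tested among 10913 genes.

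Gene expression was measured on 6 bead arrays, 2 for each of 3 groups. All samples came from OG2 mice, in which Pou5f1 regulatory DNA drives a green fluorescent protein. HFGSC were germline stem cells obtained from dorsal skin hair follicles at an age of 4 months. GSC were germline stem cells of the testis, taken at 3 months, and HF were hair follicle cells of dorsal skin, taken at 2 months. Age therefore differed along with group, and the part of age in any difference cannot be told apart from that of the group. Nothing in the labels tells separate animals or cultures apart within a group. P-values therefore reflect the spread of these samples alone, and that spread may be technical.

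Germ cells rely heavily on control of RNA after transcription. Helicases and RNA-binding proteins gather in cytoplasmic granules, where messages are stored, translated or destroyed and where small RNAs that silence transposable elements are made. Spermatogonia divide without fully separating and stay joined by bridges. In mouse, many genes of this kind are known to be silent in somatic cells through methylation of CG-rich promoters and through repressor complexes that contain E2F6, MGA and MAX. Neither methylation nor binding was measured on these arrays.

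Promoter sequences are given here because 8 of the 9 genes with a probe differed from HF in HFGSC or GSC (all but Stk31), and because CG content and repressor motifs are the features that background names. RefSeq (GRCm38.p6) held a window of 250 bases before the start of transcription for 9 of the 10 genes, Dnd1 being the one without, and 10 windows in all because Stk31 has 2. The 10 windows held 9 (Tktl1) to 31 (Ddx4) CG dinucleotides, against a median of 6 over the 32851 windows of the table. All 10 lay above that median. CACGTG, an E-box of the kind MGA and MAX bind, was present in Ddx4, Taf7l, Stk31 and Rbm46, and in 6.02% of all windows, counting both strands. TCCCGC, an E2F-type motif searched on both strands and reading GCGGGA on the opposite one, was present in Ddx4, Tex14, Tex19.1 and Rbm46, and in 16.9% of all windows. The motifs do not overlap each other. Dazl, Tex101 and Tktl1 held neither. Both motifs contain CG, and the shares over all windows were not matched for CG content. They therefore do not show whether the motifs are more frequent here than in windows equally rich in CG. These matches are a description of letters in the window, not of bound sites.

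4 windows follow, on the strand of each gene and 5′ to 3′, with motif matches in capitals. Ddx4 holds both motifs, Taf7l the E-box alone, Tex19.1 the E2F-type motif alone and Dazl neither. They lie at chr13:112652311-112652560 (minus strand) for Ddx4, chrX:134476491-134476740 (minus) for Taf7l, chr11:121145893-121146142 (plus) for Tex19.1 and chr17:50293621-50293870 (minus) for Dazl.
Ddx4: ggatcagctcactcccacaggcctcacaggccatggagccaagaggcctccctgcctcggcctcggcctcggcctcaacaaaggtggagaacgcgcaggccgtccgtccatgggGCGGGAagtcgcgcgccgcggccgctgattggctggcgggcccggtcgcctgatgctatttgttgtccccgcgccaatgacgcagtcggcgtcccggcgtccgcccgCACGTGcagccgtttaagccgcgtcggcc
Taf7l: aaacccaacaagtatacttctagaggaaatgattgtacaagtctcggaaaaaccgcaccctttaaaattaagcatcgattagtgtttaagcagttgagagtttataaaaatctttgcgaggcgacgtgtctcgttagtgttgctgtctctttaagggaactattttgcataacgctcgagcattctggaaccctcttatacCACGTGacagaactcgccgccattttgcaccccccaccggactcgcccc
Tex19.1: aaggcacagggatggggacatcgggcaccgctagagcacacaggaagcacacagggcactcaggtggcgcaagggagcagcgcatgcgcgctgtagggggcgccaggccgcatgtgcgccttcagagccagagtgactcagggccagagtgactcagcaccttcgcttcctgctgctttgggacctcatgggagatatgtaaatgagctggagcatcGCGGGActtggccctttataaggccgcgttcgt
Dazl: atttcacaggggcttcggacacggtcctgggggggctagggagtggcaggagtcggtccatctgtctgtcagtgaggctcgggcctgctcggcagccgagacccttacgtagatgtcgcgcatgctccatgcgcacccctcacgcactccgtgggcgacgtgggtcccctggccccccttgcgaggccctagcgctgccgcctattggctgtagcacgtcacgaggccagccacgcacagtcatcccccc
In Ddx4 the E-box began 29 bases before the start of transcription and the E2F-type motif 136 bases before it. The Taf7l E-box began 49 bases before the start and the Tex19.1 motif 33 bases before it.

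Array means lay between 911 and 1149 intensity units, and 16094 to 19552 probes were detected per array. The number of arrays limits the precision: 2 arrays against 2 cannot give an exact two-sided permutation p below 0.333, and all tests below rest on a spread shared across genes. Cell identities were checked against lists of marker genes. Of 16 genes for undifferentiated spermatogonia, both arrays detected 15 in HFGSC, 14 in GSC and 4 in HF. Of 16 follicle and basal keratinocyte genes, 5, 6 and 4 were detected in HFGSC, GSC and HF. Among 7 not detected on any array were Krt5, Krt14, Krt15 and Trp63, so the epidermal part of the HF label has no support from those markers. Other genes of the list were divided: Lgr6 was higher in HF than in HFGSC and GSC (limma, adjusted p under 0.05). Col17a1 and Itgb4 were lower in HF than in both, and Krt17 was lower in HF than in GSC. For the marker counts that follow, the shares over all tested genes were 17.2% higher and 9.37% lower than HF in HFGSC. In GSC they were 19.5% higher and 12.6% lower. Of 6 tested genes of differentiating spermatogonia 5 were higher than HF in HFGSC and 4 in GSC, Kit and Sohlh1 in both, while Stra8, which marks meiotic entry, was not detected on any array. Both arrays detected 6 genes of this list in HFGSC, 5 in GSC and 1 in HF. Of 18 spermatocyte and spermatid genes with a probe 10 were not detected on any array, Prm1 among them, and 6 were tested: Ldhc, Odf1 and Tnp1 were higher and Crem lower in HFGSC, and Ldhc, Spaca1 and Tnp1 were higher in GSC. With 1 array left out at a time, Ldhc alone kept its call throughout, in HFGSC and in GSC. Of 9 Sertoli cell genes with a probe, Amh, Dhh, Fshr and Gata4 were not detected on any array and 4 were tested: Cldn11 and Sox9 were higher and Rhox5 lower in HFGSC, and Trf was higher in GSC. With 1 array left out at a time, the Cldn11 and Trf calls were kept throughout, and those of Sox9 and Rhox5 were not.

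In HFGSC, 7 of the 9 genes were higher than in HF and none was lower (limma, adjusted p under 0.05). Over all tested genes 17.2% were higher and 9.37% lower. In GSC, 8 of the 9 were higher than in HF and none was lower, where 19.5% of all genes were higher and 12.6% lower. The median log2 difference of the 9 was 5.93 for HFGSC against HF and 6.95 for GSC against HF, beside 0.047 and 0.070 over all genes. Both HFGSC arrays and both GSC arrays lay above both HF arrays for all 9 genes, as they did for 34.6% and 36.0% of all genes. For Stk31 in GSC that order has no measured level behind it. Its GSC replicate 2 value, 4.99, was not detected, nor were the HF values of 4.92 and 4.86. The HFGSC and GSC comparisons share the HF arrays, so their agreement is not independent. The calls of Dazl, Dnd1, Tex14, Tex19.1, Tex101, Taf7l and Tktl1 held under every alternative run, with adjusted p-values of at most 0.0136. In bulk samples fewer cells of a type and less RNA per cell cannot be told apart.

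Since no gene of the 9 was detected on both HF arrays, each passed the filter through HFGSC or GSC. Fitted without the filter, 7 and 8 of the 9 were again higher, where 1587 and 1927 of all 19057 genes were. 8 of the 9 genes were below detection on both HF arrays, Dnd1 being the exception on 1 array, so most folds are lower bounds. A bound sets the HFGSC or GSC mean against the mean, per HF array, of the lowest detected signal or the probe's own signal, whichever is higher.

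**Figure D1:**
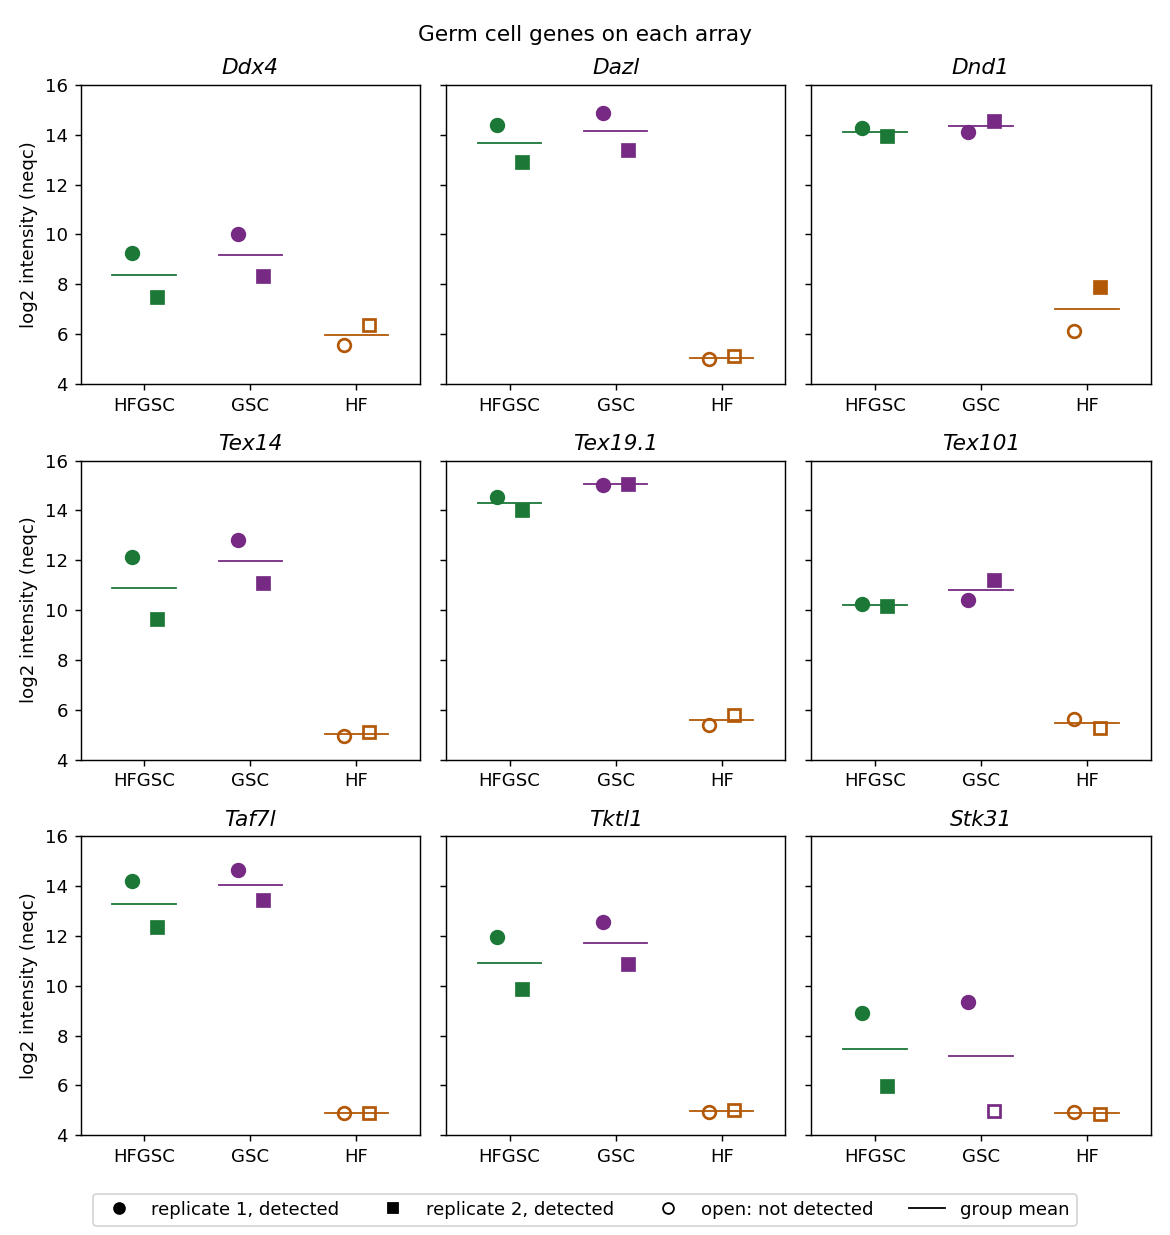
Normalized log2 intensity (vertical axis) of the tested probe of each of the 9 genes in HFGSC, GSC and HF (horizontal axis); circles are replicate 1, squares replicate 2, open symbols arrays where the probe was not detected, and lines group means. HF points sit between 4.86 and 7.88 in every panel, below all HFGSC and GSC points, and in 6 panels the circle of HFGSC and of GSC lies more than 1 above the square.

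Dazl encodes an RNA-binding protein that promotes translation of germ cell messages. Its log2 intensity was 14.39 and 12.92 on the HFGSC arrays, 14.89 and 13.40 on the GSC arrays and 4.99 and 5.13 on the HF arrays. HF arrays lay far below all others and were not detected, while the HFGSC and GSC values interleaved. Dazl was at least 148-fold higher in HFGSC than in HF (log2 difference 8.60, SE 0.64, limma adjusted p = 0.000236) and at least 208-fold higher in GSC than in HF (log2 difference 9.09, adjusted p = 0.000187).

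Dnd1 encodes an RNA-binding protein that keeps germ cells alive and acts with Nanos proteins on message decay. It stood at 14.27 and 13.94 in HFGSC and at 14.13 and 14.55 in GSC. In HF it was 6.13, not detected, on replicate 1 and 7.88, detected, on replicate 2. It is the 1 gene of the 9 with a detected HF array, and the HFGSC and GSC ranges overlap. With the undetected HF array set at its lowest detected signal, Dnd1 was at least 125-fold higher in HFGSC and at least 147-fold higher in GSC than in HF. From group means it was 137-fold higher in HFGSC (log2 difference 7.10, SE 0.55, adjusted p = 0.000285) and 161-fold higher in GSC (log2 difference 7.33, adjusted p = 0.000232) than in HF. Without HF replicate 1 the log2 differences were 6.22 and 6.45, and without HF replicate 2, on the undetected array alone, they were 7.97 and 8.21. All 4 passed.

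Ddx4, the mouse Vasa gene, encodes a DEAD-box helicase of germ granules and is a standard germ cell marker. Its tested probe gave 9.26 and 7.50 in HFGSC, 10.002 and 8.33 in GSC, and 5.56 and 6.37, not detected, in HF. HFGSC and GSC overlapped each other and lay above HF, but the gaps within HFGSC and within GSC were large beside the distance to HF. Ddx4 was at least 6.57-fold higher in GSC than in HF (log2 difference 3.20, SE 0.80, limma adjusted p = 0.0208). In HFGSC it averaged 8.38 ± 1.24 against 5.97 ± 0.57 in HF (SD, n = 2 each), a log2 difference of 2.41 that did not pass (SE 0.80, adjusted p = 0.0629).

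Single arrays decide these Ddx4 calls. Without HFGSC replicate 2 the difference from HF was 3.29 and passed (adjusted p = 0.0275). For GSC against HF the call was lost without GSC replicate 1 (2.36, adjusted p = 0.110) and without HF replicate 1 (2.79, adjusted p = 0.114). With the replicate number as a block, HFGSC against HF passed (adjusted p = 0.0163).

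Stk31, a putative kinase with a Tudor domain found in germ cells, varied most between arrays. It read 8.91 and 5.99 in HFGSC, 9.35 and, not detected, 4.99 in GSC, and 4.92 and 4.86, not detected, in HF. The HFGSC replicate 2 value was only just detected, with a detection p of 0.0481, and Stk31 passed the filter through HFGSC alone. The replicate 1 arrays of HFGSC and GSC stood high and the GSC replicate 2 array was at the level of HF. Neither comparison passed: the log2 difference from HF was 2.56 in HFGSC (SE 1.39, adjusted p = 0.217) and 2.28 in GSC (SE 1.39, adjusted p = 0.255). Without GSC replicate 2 the GSC difference was 4.46 (adjusted p = 0.0415), and without GSC replicate 1 it was 0.10. Without HFGSC replicate 1 the HFGSC difference was 1.10 and without HFGSC replicate 2 it was 4.02, neither passing. With the replicate block HFGSC against HF passed (adjusted p = 0.0407), which with Ddx4 brings the count to 9 of 9, where 26.4% of all genes were then higher.

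Tex14 encodes a protein needed for the bridges between dividing germ cells. It read 12.13 and 9.64 in HFGSC, 12.82 and 11.10 in GSC, and 4.93 and 5.09, not detected, in HF. The lower HFGSC array still stood well above HF. Tex14 was at least 21.7-fold higher in HFGSC (log2 difference 5.88, SE 0.90, adjusted p = 0.00347) and at least 45.7-fold higher in GSC (log2 difference 6.95, adjusted p = 0.00152) than in HF.

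Tex19.1, a mouse gene known for restraining retrotransposons in germ cells, had the smallest standard error of the 9 genes. It read 14.53 and 14.03 in HFGSC, 15.01 and 15.08 in GSC, and 5.40 and 5.80, not detected, in HF. It was at least 229-fold higher in HFGSC (log2 difference 8.68, SE 0.34, adjusted p = 4.08e-05) and at least 387-fold higher in GSC (log2 difference 9.44, adjusted p = 3.33e-05) than in HF.

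Tex101 encodes a membrane-anchored surface protein of male germ cells. It read 10.23 and 10.15 in HFGSC, 10.42 and 11.20 in GSC, and 5.62 and 5.27, not detected, in HF. The HFGSC arrays lay close together. Tex101 was at least 13.4-fold higher in HFGSC (log2 difference 4.74, SE 0.52, adjusted p = 0.000905) and at least 20.6-fold higher in GSC (log2 difference 5.36, adjusted p = 0.000515) than in HF.

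Taf7l is an X-linked paralogue of Taf7, a subunit of the general transcription factor TFIID, and is used in place of it in male germ cells. It read 14.23 and 12.35 in HFGSC, 14.66 and 13.45 in GSC, and 4.91 and 4.88, not detected, in HF. It was at least 114-fold higher in HFGSC (log2 difference 8.40, SE 0.68, adjusted p = 0.000305) and at least 196-fold higher in GSC (log2 difference 9.17, adjusted p = 0.000221) than in HF. The HF arrays lay close together, while the gap was 1.88 in HFGSC.

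Tktl1 encodes a transketolase-like protein related to the enzyme of the pentose phosphate pathway. It read 11.96 and 9.86 in HFGSC, 12.58 and 10.87 in GSC, and 4.94 and 5.01, not detected, in HF. HFGSC and GSC ranges overlapped and both lay above HF. Tktl1 was at least 22.0-fold higher in HFGSC (log2 difference 5.93, SE 0.83, adjusted p = 0.00245) and at least 38.8-fold higher in GSC (log2 difference 6.74, adjusted p = 0.00127) than in HF.

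Set against GSC, the HFGSC arrays showed no member past the threshold. 0 of the 9 passed limma's adjusted p of 0.05 and none had an unadjusted p under 0.05, where 0.440% and 7.36% of all genes did. The mean was lower in HFGSC for 8 of the 9 and higher for Stk31. The share of all genes with a lower mean in HFGSC was not counted. The median log2 difference of the 9 was -0.76, beside -0.0145 over all genes. The log2 differences, each with its 95% interval, were -0.79 (-2.66 to 1.09) for Ddx4, -0.49 (-1.98 to 1.00) for Dazl and -0.23 (-1.52 to 1.06) for Dnd1. Those of Tex14 and Tex101 were -1.07 (-3.18 to 1.04) and -0.62 (-1.83 to 0.59).

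Tex19.1 came nearest to the threshold, at -0.76 (-1.55 to 0.03), with an unadjusted p of 0.0577 and an adjusted p of 0.718. Both HFGSC arrays lay below both GSC arrays for Tex19.1 and for Tex101, as for 17.7% of all genes, and the other 7 overlapped. Taf7l, Tktl1 and Stk31 gave -0.77 (-2.36 to 0.81), -0.82 (-2.77 to 1.13) and 0.28 (-2.98 to 3.53). The intervals leave room for differences of several-fold in most members, so these values do not show that the groups have equal levels. Between arrays of the same replicate number, HFGSC lay below GSC in both pairs for 7 of the 9 genes, Dnd1 and Stk31 being the others, as for 34.3% of all genes. With the replicate block 0 of the 9 passed, and Tex19.1 had an unadjusted p of 0.0245 and an adjusted p of 0.220. Leaving out 1 array, which also breaks a same-numbered pair, turned the sign of 6 genes: without HFGSC replicate 2 or without GSC replicate 1 the differences of Dazl (0.24 and 0.26), Ddx4 (0.092 and 0.053) and Tktl1 (0.24 and 0.035) were above 0. Without HFGSC replicate 2 those of Tex14 and Taf7l were each 0.17, and Stk31 fell below 0 without HFGSC replicate 1 or GSC replicate 2.

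**Figure D2:**
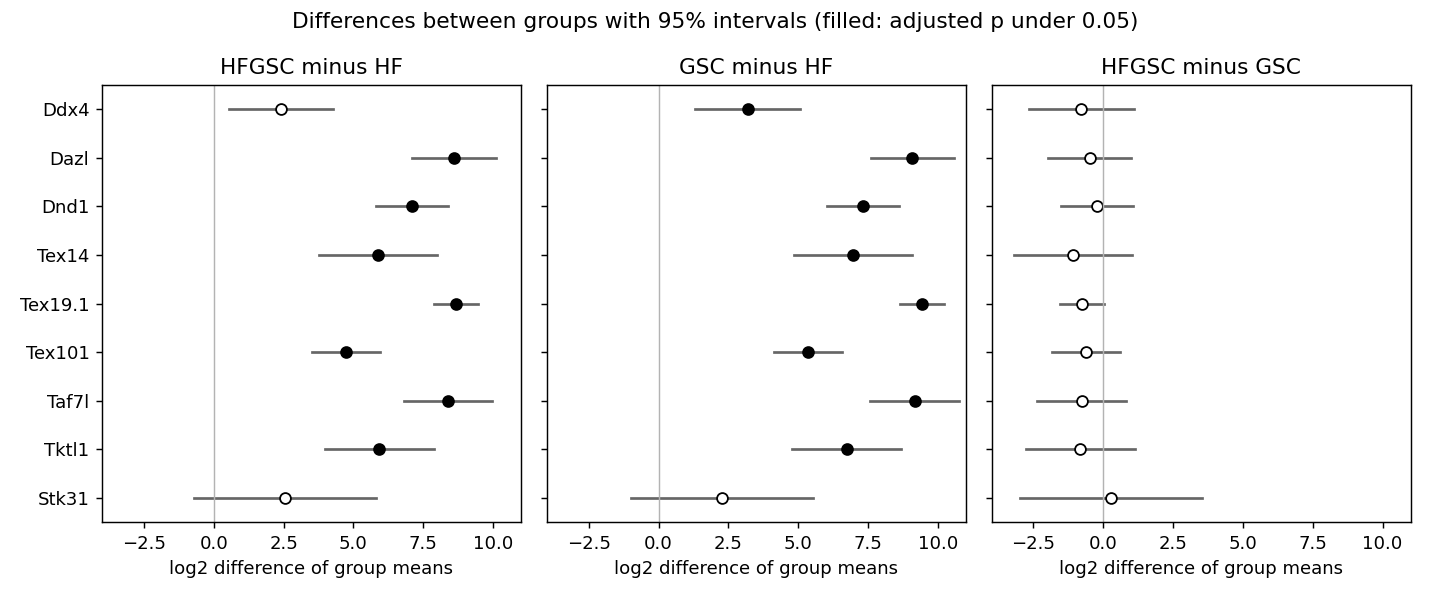
Log2 difference of group means (horizontal axis) with its 95% interval for the 9 genes, in HFGSC minus HF, GSC minus HF and HFGSC minus GSC; filled points have an adjusted p under 0.05. 7 and 8 points are filled in the comparisons with HF, with Stk31 open in both and Ddx4 open in HFGSC minus HF, and no point is filled in HFGSC minus GSC, where all intervals include 0.

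4 genes had more than 1 probe, and their probes did not read alike. When every kept probe was fitted on its own, the second Tktl1 probe gave 9.60 and 7.77 in HFGSC, 10.75 and 8.58 in GSC, and 5.04 and 4.99 in HF, and it passed in both comparisons with HF (adjusted p = 0.0237 for HFGSC and 0.00851 for GSC). The second Dazl probe read 7.09 and, not detected, 5.57 in HFGSC, 8.09 and 7.37 in GSC, and 5.03 and 5.35, not detected, in HF. On that probe GSC was at least 2.44-fold higher than HF (adjusted p = 0.0138), while the HFGSC difference of 1.14 did not pass (adjusted p = 0.175). It also placed both HFGSC arrays below both GSC arrays, by 1.40 on the log2 scale, which did not pass (unadjusted p = 0.0355, adjusted p = 0.664).

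A second Ddx4 probe read 8.77 and 6.66 in HFGSC, 9.28 and, not detected, 5.29 in GSC, and 4.86 and 4.91, not detected, in HF, and passed in neither comparison with HF (adjusted p = 0.143 for HFGSC and 0.190 for GSC). The other Ddx4 probe (4.76 to 4.98) and a second Stk31 probe (4.82 to 5.00) were not detected on any array. With the mean of all kept probes of a gene in place of the brightest, Ddx4 lost its call for GSC against HF (log2 difference 2.80, adjusted p = 0.0708). The platform annotation ties the second Dazl probe to another transcript record than the tested one. For Ddx4, Tktl1 and Stk31 all probes of a gene share a record. Probe sequences were not used here, so where on its transcript each probe lies is not stated.

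**Figure D3:**
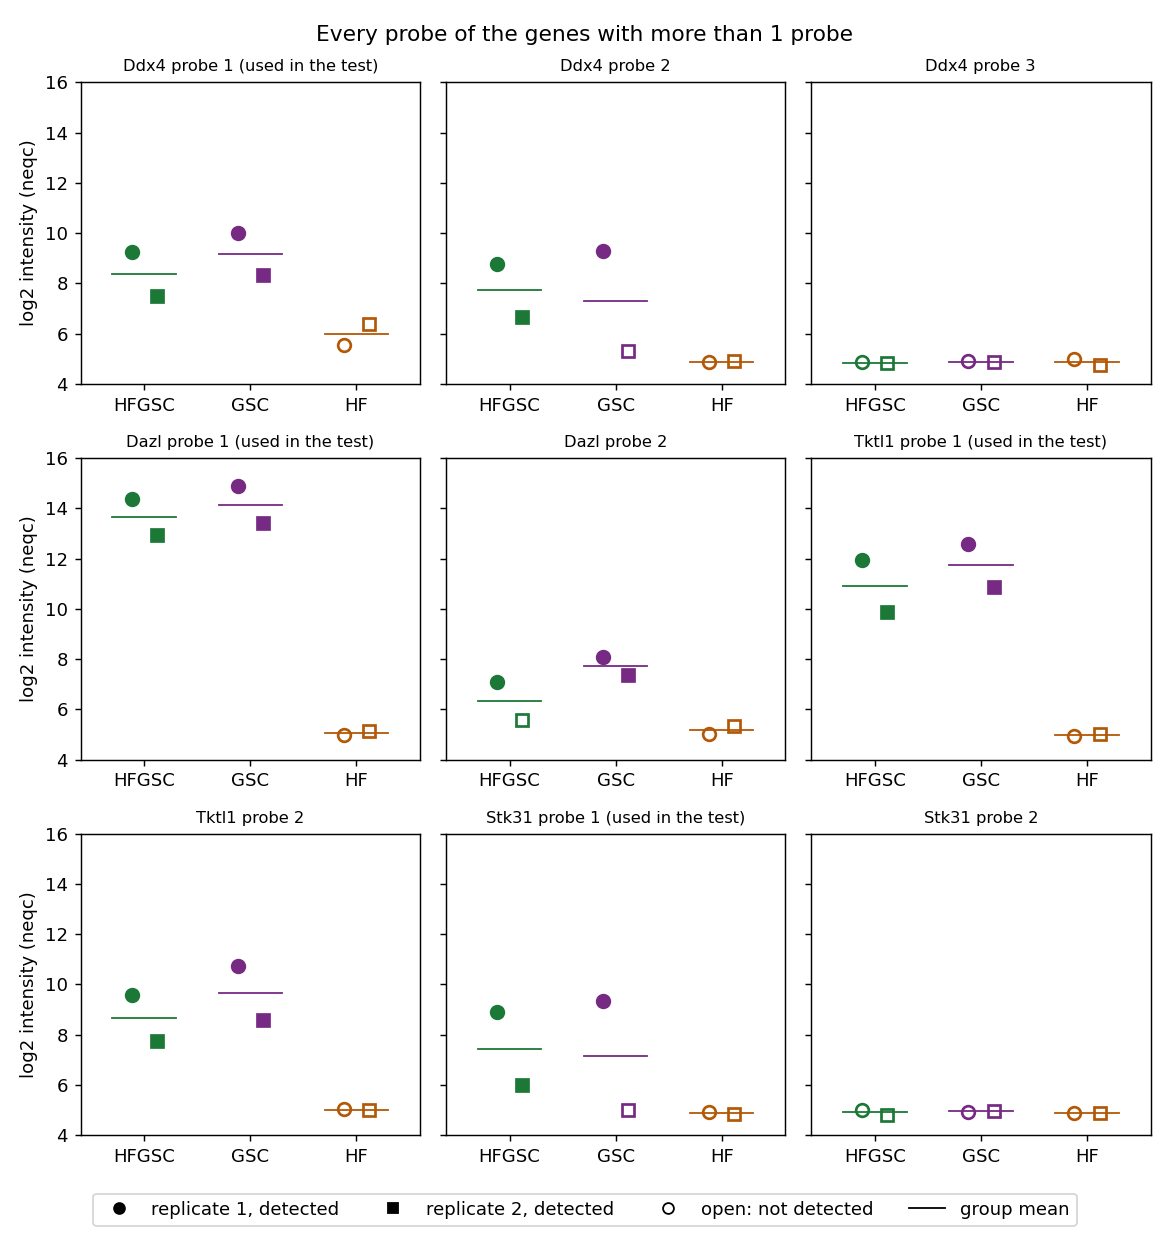
Normalized log2 intensity (vertical axis) of all 9 probes of Ddx4, Dazl, Tktl1 and Stk31 in HFGSC, GSC and HF (horizontal axis), with open symbols where a probe was not detected and lines for group means. Probe 3 of Ddx4 and probe 2 of Stk31 stay flat near 4.9 in every group, and both Tktl1 probes show the same order of the HFGSC and GSC arrays.

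Within HFGSC and within GSC the replicate 1 array read higher than replicate 2 for most of these genes. The gap exceeded 1 on the log2 scale in both groups for 6 of the 9 (Ddx4, Dazl, Tex14, Taf7l, Tktl1 and Stk31), as for 7.76% of all tested genes. Dnd1, Tex19.1 and Tex101 did not show it, with gaps of 0.33, 0.50 and 0.083 in HFGSC and -0.42, -0.074 and -0.78 in GSC. The largest gaps were those of Stk31, 2.92 in HFGSC and 4.35 in GSC, and Tex14, 2.49 and 1.72. The median gap over the 9 genes was 1.76 in HFGSC, 1.49 in GSC and -0.14 in HF, beside -0.052, -0.24 and -0.11 over all genes. In HF 8 of the 9 were below detection on both arrays, where a gap has no measured level behind it.

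Other measures moved with the array number. The summed linear level of 14 fibroblast genes was 28081 on HFGSC replicate 1 and 66628 on replicate 2, 25024 and 22481 in GSC, and 53463 and 54936 in HF, so that it opposed the germ cell genes in HFGSC and not in GSC. Of these 14 genes Fap, Lum and Postn were not detected on any array. The summed level of 10 Leydig and peritubular genes was 2814 and 8620 in HFGSC, 2516 and 3733 in GSC and 351 and 658 in HF, and that of 9 Sertoli genes 7084 and 13702 in HFGSC, 6856 and 8395 in GSC and 5313 and 5475 in HF. Both sums ran against the germ cell gap in HFGSC and in GSC. Of the 10 Leydig and peritubular genes 6 were not detected on any array, the steroid enzyme gene Cyp17a1 and Star among them. Among the 15 undifferentiated spermatogonial genes tested, no gene had a gap over 1 in both groups, and their median gap was 0.39 in HFGSC and -0.25 in GSC. Of 15 tested partner and widely expressed RNA-binding genes 2 did, Cnot1 and Pum2, and Cnot1 read 9.01 and 6.04 in HF as well. The gap was not particular to the members. It exceeded 1 in both groups for 7 of 29 other germ granule and germ cell RNA-binding genes and 4 of 11 other Tex genes. It did so for 3 of 10 relatives of the members and 2 of 12 other TFIID genes, beside 7.76% of all tested genes. The part of these measures in the replicate gap was not tested.

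**Figure D4:**
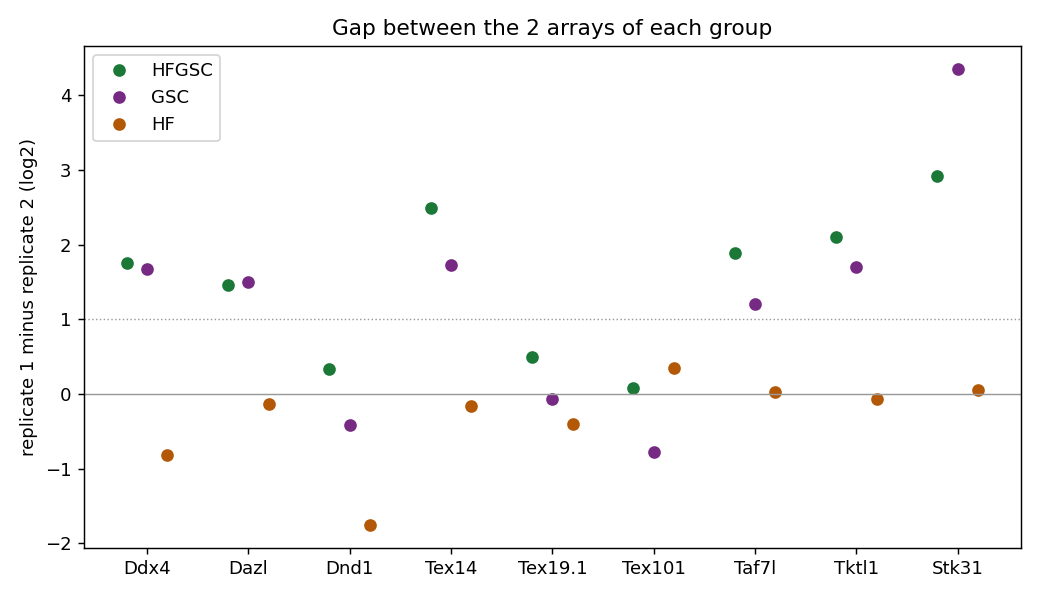
Replicate 1 minus replicate 2 in log2 intensity (vertical axis) for the 9 genes in HFGSC, GSC and HF (colours); the dotted line marks a gap of 1. In Ddx4, Dazl, Tex14, Taf7l, Tktl1 and Stk31 the HFGSC and GSC points lie above the dotted line and the HF points below it.

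The members belong to a wider set of germ granule and germ cell RNA-binding genes. Of 39 further such genes 35 had a probe and 29 were tested. Both arrays detected 29 of the 35 in HFGSC, 28 in GSC and 8 in HF. Most of the tested genes thus passed the filter through HFGSC or GSC alone. That favours genes that are higher there, and no count without the filter was made for this list. In HFGSC 23 of the 29 were higher than in HF and none was lower (median log2 difference 4.06), and in GSC 22 were higher and none lower (median 4.41). For this and the lists that follow, the shares over all genes are the 17.2% higher and 9.37% lower in HFGSC and the 19.5% and 12.6% in GSC given above. No gene of the 29 passed between HFGSC and GSC. Piwil2, a Piwi protein of the small RNA pathway against transposable elements, was at least 99.7-fold higher in HFGSC (adjusted p = 0.000156) and at least 140.5-fold higher in GSC, where adjusted p = 0.000123, than in HF. Tdrd5, a Tudor-domain protein of the germ granule, was at least 36.8-fold and at least 59.9-fold higher, with adjusted p = 0.000233 and 0.000159.

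Rbmxl2, a testis RNA-binding protein of the RBMX family, was at least 56.4-fold higher in HFGSC (adjusted p = 0.000138) and at least 71.5-fold higher in GSC, where adjusted p = 0.000114, than in HF. Ddx25, a helicase of male germ cells, was at least 88.4-fold higher in HFGSC, and Igf2bp3, an RNA-binding protein of developing cells, at least 55.2-fold higher in GSC. Of the same list, Celf3 and Mael were not detected on any array. With the counts taken without 1 array at a time, 18 to 23 of the 29 were higher in HFGSC and 20 to 22 in GSC. With the replicate block Khdrbs3, a further RNA-binding protein gene, was lower in HFGSC (adjusted p = 0.0156), and 25 were higher in GSC.

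A list of other genes known as partners of Dazl or Dnd1, and of RNA-binding genes that most cells use, did not follow. It leaves out Nanos2 and Nanos3, which were counted in the germ granule list above and were higher than HF in HFGSC and in GSC. None of the 15 tested genes of the partner list was higher in HFGSC or in GSC, and 3 and 2 were lower than in HF (median log2 differences -0.14 and -0.19). Apobec1, an RNA-editing enzyme whose cofactor A1cf is related to Dnd1, was lower, with a log2 difference from HF of -2.13 in HFGSC (adjusted p = 0.0246) and -1.75 in GSC (adjusted p = 0.0423). Eif4e, the cap-binding translation factor, was lower too, by log2 differences of -1.27 (adjusted p = 0.0493) and -1.42 (adjusted p = 0.0288). Fmr1, an RNA-binding protein that acts on translation, gave -1.91 in HFGSC (adjusted p = 0.0234) and -0.13 in GSC, which did not pass. Without HF replicate 1, HF replicate 2 or HFGSC replicate 1, 0 of the 15 passed in HFGSC. Without HF replicate 1, GSC replicate 1 or GSC replicate 2, and also with median scaling, 0 passed in GSC, and without HF replicate 2 Eif4e alone did. In HFGSC Eif4e passed as reported and with the replicate block, and in none of the other settings run on the lists, which were median scaling and leaving out each array. With the block Pum2 was also lower in HFGSC (adjusted p = 0.0371) and Snd1 in GSC (adjusted p = 0.0309), and Fmr1 was lower in HFGSC than in GSC (adjusted p = 0.0435).

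Close relatives of the members were compared in the same way. Of 10 tested, 4 were higher in HFGSC and 4 in GSC than in HF, and they were the same genes: Tex19.2, Boll, Tktl2 and D1Pas1. Tex19.2, the neighbouring copy of Tex19.1, was at least 111-fold higher in HFGSC (adjusted p = 8.13e-05) and at least 159-fold higher in GSC, where adjusted p = 7.11e-05. Whether a probe also binds the RNA of the near copy was not tested. Boll, of the Dazl family, was at least 3.40-fold and at least 4.23-fold higher, and Tktl2, a relative of Tktl1, at least 1.41-fold and at least 2.08-fold.

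D1Pas1, a germ cell relative of Ddx4 among the DEAD-box helicases, was at least 4.45-fold higher in HFGSC (adjusted p = 0.0348) and at least 8.09-fold higher in GSC, where adjusted p = 0.00994, than in HF. Tkt, the transketolase enzyme, was lower in HFGSC (log2 difference -1.78, adjusted p = 0.0251) and gave -1.37 in GSC, where it did not pass (adjusted p = 0.0539). In GSC Tkt did pass as lower with the replicate block (adjusted p = 0.00384), without HFGSC replicate 1 and without HFGSC replicate 2. The widely expressed relatives Ddx3x, Syncrip and Hnrnpr passed in neither comparison. In HFGSC 2 of the 10 were higher, and Tkt did not pass, without HF replicate 1, HF replicate 2 or HFGSC replicate 1. In GSC D1Pas1 did not pass without HF replicate 1 or GSC replicate 1. With the block Rbm47 was higher in HFGSC too (adjusted p = 0.00416).

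Around Taf7l, 12 other TFIID genes were tested. 3 were higher in HFGSC (Taf9b, Taf5 and Taf6), 3 in GSC (Taf9b, Taf5 and Taf8), and none was lower in either. These shares are near those over all genes, 17.2% in HFGSC and 19.5% in GSC. Taf9b, a relative of Taf9, was 18.8-fold higher in HFGSC (log2 difference 4.23, adjusted p = 0.00223) and 31.7-fold higher in GSC (log2 difference 4.99, adjusted p = 0.000992) than in HF, whereas Taf9 differed by 0.053 and 0.072. Tbp, the subunit that binds the promoter, differed by 0.56 and 1.07 and did not pass. Only 1 of the 12 was higher in HFGSC without HF replicate 1, HF replicate 2 or HFGSC replicate 1, and in GSC without HF replicate 2 or GSC replicate 1. Under the block 5 were higher in each comparison, Tbp in GSC among them (adjusted p = 0.0185), and Taf10 was lower in both (adjusted p = 0.0109 in HFGSC and 0.0110 in GSC). Taf6 passed in HFGSC as reported and with the block, and not with median scaling or without any 1 array.

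Around Tktl1, 6 pentose phosphate pathway genes were tested, Tkt and Tktl2 among them. In HFGSC 1 was higher (Tktl2) and 1 lower (Tkt), and in GSC 2 were higher (Tktl2 and Rpia) and 1 lower (Pgls). Rpia, the isomerase of ribose 5-phosphate, rose by 1.52 (adjusted p = 0.0243), and Pgls fell by 1.12 (adjusted p = 0.0440). Without HF replicate 1, HF replicate 2 or HFGSC replicate 1, none of the 6 passed in HFGSC. In GSC the Rpia call was lost without HF replicate 1, HF replicate 2 or GSC replicate 2. The Pgls call was lost with median scaling and without HF replicate 1, HF replicate 2 or GSC replicate 1. With the replicate block 2 were higher and 3 lower in HFGSC, and 2 higher and 2 lower in GSC.

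The symbol Tex marks genes first found as expressed in testis and names no shared function. The array held 31 other Tex genes, of which 19 were not detected on any array and 11 were tested. Both arrays detected 10 of them in HFGSC, 11 in GSC and 7 in HF. In HFGSC 3 were higher than in HF (Tex19.2, Tex13b and Tex11) and in GSC 5 were (those and Tex10 and Tex30). None was lower, and none passed between HFGSC and GSC. Tex13b, an X-linked gene of spermatogonia, was at least 53.3-fold higher in HFGSC (adjusted p = 0.000156) and at least 94.1-fold higher in GSC, where adjusted p = 0.000114. Tex11, an X-linked gene that acts in meiosis, read 11.34 and 8.04 in HFGSC, 12.11 and 8.61 in GSC and 4.85 and 4.91 in HF, and so shares the replicate gap of Tex14 and Tktl1. It was at least 9.46-fold higher in HFGSC (adjusted p = 0.0344) and at least 15.1-fold in GSC (adjusted p = 0.0183).

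The Tex counts moved with single arrays. In HFGSC 5 of the 11 were higher without HFGSC replicate 2, and 2 without HF replicate 1, HF replicate 2 or HFGSC replicate 1, where the Tex11 call was lost. In GSC 2 were higher without HF replicate 1, HF replicate 2 or GSC replicate 1, the calls of Tex10, Tex11 and Tex30 being lost, and Tex10 was lost without GSC replicate 2 too. Without HFGSC replicate 1 or 2, 7 were higher in GSC and Tex261 was lower. Under the block 6 were higher in HFGSC, and in GSC 7 were higher and 2 lower, Tex2 (adjusted p = 0.0317) and Tex261 (adjusted p = 0.00925). Among the undetected genes were Tex15, needed for meiotic recombination, and Tex12, part of the synaptonemal complex that joins paired chromosomes in meiosis.

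The profiles most like those of Ddx4 and Dazl were sought over the 6 arrays, as the smallest root mean square distance between centred log2 values among 10912 other genes. Nearest to Ddx4 were D1Pas1 (0.20), BC052688 (0.26) and Zdbf2 (0.30). Nearest to Dazl were Xlr4a (0.13), Taf7l (0.19) and Mageb4 (0.33). Since 3 groups of 2 arrays with a shared replicate gap set most of the distance, many genes that are high in HFGSC and GSC can lie close.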

How the data were processed

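Total RNA of 6 samples was hybridised as biotin-labelled cRNA to bead arrays of Illumina, as the labels' protocols state. Per the file headers, the deposited intensity of each probe is a bead summary before normalization, and each has a detection p-value. The authors also deposited log2 values after quantile normalization: all columns share a median of 7.046 and differ by at most 0.148 from a quantile normalization of the log2 intensities run here, and they are not centred. GenomeStudio 2011.1 and R 3.0.2 are named in the submitters' processing notes. Of 45281 probes 34885 had 1 gene symbol in the platform annotation, 18 several and 10378 none. For 34807 the Entrez identifier matched RefSeq (GRCm38.p6), which changed 0 symbols. Intensity columns were matched to samples by the sample descriptions, and each detection p-value column by its place after its intensity column. The authors' values were matched by sample identifier. Titles gave the group and replicate, and 0 value columns were left unused.

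Intensities were normalized with limma 3.58.1 (neqc, R 4.3.3: background from detection p-values, offset 16, quantile, log2). A probe was kept if 1 or more groups had a detection p under 0.05 on both arrays, and the brightest probe stood for its gene. Linear models with moderated variance and a mean-variance trend were fitted to all 6 arrays, with 3 residual degrees of freedom, and adjusted by Benjamini-Hochberg over 10913 genes at 0.05.

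Replicate numbers are tied by the labels to no animal or batch. Replicate 1 minus replicate 2 correlated across genes at 0.580 between HFGSC and GSC, 0.436 between HFGSC and HF and 0.757 between GSC and HF. On the strength of these values pairing by number was assumed for the blocked fit and the same-numbered pairs alone. The values come from the arrays that the block was then applied to. The fit without the number is the one reported, since no label gives the pairing, and which fit suits the arrays better was not tested. Blocked values stand beside the calls they change among the 9 genes and, for the lists tested in full, beside their counts.

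The genes and lists were chosen with earlier results of these data known. Named genes are the 10 symbols, up to 4 genes per list and comparison with the smallest adjusted p among those that passed, paralogues and partners set beside a member, and the 3 nearest profiles of Ddx4 and Dazl. Cnot1, Tex30, genes called with the block alone, marker genes and the undetected genes were named after their values were seen. Some genes are in more than 1 list: Boll and D1Pas1 among germ cell RNA-binding genes and relatives, Tex19.2 among relatives and Tex genes, Tkt and Tktl2 among relatives and pentose phosphate genes.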

Additional observations from a re-analysis of the deposited data

How the results depend on the processing

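The counts of the 9 genes called stayed within 1.5 times of the reported ones under every alternative run: 7 to 9 for HFGSC against HF, 7 to 9 for GSC against HF and 0 for HFGSC against GSC. The alternatives were no background correction, an offset of 50, the authors' values, median scaling, no filter, a detection p under 0.01, the mean of kept probes, every kept probe fitted, no trend, only the 4 arrays compared, the replicate block and leaving out each array. Leave-one-out kept the normalized values, and a lone array was assumed to vary like the other groups. Under median scaling Ddx4 passed for HFGSC against HF (2.62, adjusted p = 0.0364). With a detection p under 0.01 Stk31 did not pass the filter, and 8 of the 9 genes were tested.

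Over all genes the counts moved more. Without 1 array they ran from 1371 (HF replicate 1) to 2860 for HFGSC against HF, reported as 2896. They ran from 1699 (HF replicate 1) to 3876 for GSC against HF, reported as 3501, and from 0 (HFGSC replicate 2) to 54 for HFGSC against GSC, reported as 48. With every kept probe fitted they were 4432 and 5460 against HF, a larger number of tests. HFGSC against GSC gave 13 without the trend and 5 with only the 4 arrays. With the replicate block the counts were 5122, 5669 and 174. The cause was not tested. Among the 9 genes the block changed no other call than those of Ddx4 and Stk31 for HFGSC against HF.

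Every reversed sign was in HFGSC against GSC, where no gene of the 9 passed. Without 1 array at a time the differences ran from -1.23 to 0.26 for Dazl, -1.66 to 0.092 for Ddx4, -1.71 to 0.17 for Taf7l, -2.32 to 0.17 for Tex14, -1.87 to 0.24 for Tktl1 and -1.90 to 2.45 for Stk31. A slide block was not run because no header names a slide. Signal over background limits the HF values: 8 of the 9 genes were below detection there, so their folds are bounds.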
